A study of Mus musculus with 4 samples.

Results

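The genes described here are 10 that make and fill MHC class I molecules: the light chain gene B2m, the heavy chain genes H2-K1 and H2-D1, the peptide transporter genes Tap1 and Tap2, the tapasin gene Tapbp, the immunoproteasome subunit genes Psmb8, Psmb9 and Psmb10, and Nlrc5, which encodes a transcriptional activator of some of them. They were taken by gene symbol from a table of 56748 genes, in which each symbol had 1 row, and all 10 were among the 15167 genes with enough counts to be tested. Bulk RNA sequencing was done on lung tissue with metastases of 4T1, a BALB/c triple-negative breast cancer line carrying firefly luciferase that had been injected into the tail vein of young adult female BALB/cJ mice. One group of mice received saline (2 libraries), and the other received cmLumiOpto/PARPi (2 libraries), with tissue taken after 3 weeks of treatment. cmLumiOpto is a luciferase and a light-gated channel placed in the inner mitochondrial membrane, driven by a cancer-selective cfos promoter, carried by exosome-associated AAV bearing an antibody to CD276 and switched on with the substrate ViviRen. PARPi was the PARP inhibitor olaparib, given by mouth. The labels call the control PBS and the material tumour cells harvested from the lung, while the study's methods call them saline and lung tissue, and the study's terms are used. Mice given 1 agent alone are not analysed here, so the effects of the 2 agents cannot be told apart, and mice with the same replicate number are different animals.

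The libraries held 15263375 to 16755228 counts on genes. At this depth 3 counts equalled 0.173 to 0.204 CPM, counts scaled to a common library size with TMM factors, and this floor covers counting error only. Markers listed for lung and for epithelial tumour were both present in every library. Whether RNA of the latter came from tumour cells or from lung epithelium was not tested. The summed level of 7 epithelial tumour markers, most of it keratins, was 2689.5 to 3849 CPM, and that of 7 alveolar type 2 markers was 446 and 1642 CPM in saline and 2873 and 8056 CPM after cmLumiOpto/PARPi. Tissue of this kind mixes tumour, lung and immune cells, so fewer cells of a type and less RNA per cell cannot be told apart. P-values measure the spread between these libraries, and with 2 against 2 an exact two-sided permutation of the libraries cannot give a p below 0.333.

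MHC class I molecules show peptides from inside the cell to CD8 T cells and are read by inhibitory receptors of NK cells. Proteasomes cut proteins into peptides, and interferon-gamma replaces 3 of their catalytic subunits with those of the immunoproteasome, which favours peptides that class I molecules can bind. The TAP transporter moves the peptides into the endoplasmic reticulum, where tapasin holds the empty class I molecule beside it until a peptide is bound. Nearly all nucleated cells make class I molecules, and tumours often make less of the pathway, in many cases without mutation and in a form that interferon-gamma can restore.

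The promoters are shown because several members hold interferon or Y box letters there. RefSeq starts on GRCm38.p6 were found for 8 members (9 promoters, since H2-K1 had a pair of starts), and not for Tap2 and Nlrc5. The 250 bases before the start are printed 5′ to 3′ on the strand of the gene, with capitals for every match on either strand to these motifs: GAAANNGAA and GAANNGAAA, which are cores of the interferon-stimulated response element (ISRE), CCAAT (Y box core) and GGNNTTTCC (NF-kB core). The second ISRE form was added after the first search.
B2m, plus strand, chr2:122147437-122147686: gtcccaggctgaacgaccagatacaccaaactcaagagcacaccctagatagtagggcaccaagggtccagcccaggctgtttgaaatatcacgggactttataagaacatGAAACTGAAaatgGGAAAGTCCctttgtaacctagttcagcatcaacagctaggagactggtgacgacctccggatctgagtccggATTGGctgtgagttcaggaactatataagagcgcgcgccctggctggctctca
H2-K1, minus strand, chr17:34000334-34000583: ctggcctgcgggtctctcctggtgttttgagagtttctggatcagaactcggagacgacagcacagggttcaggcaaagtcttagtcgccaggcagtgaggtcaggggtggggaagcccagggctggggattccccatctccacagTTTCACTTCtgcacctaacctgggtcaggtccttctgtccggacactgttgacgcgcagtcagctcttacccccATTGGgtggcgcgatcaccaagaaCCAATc
H2-D1, plus strand, chr17:35262844-35263093: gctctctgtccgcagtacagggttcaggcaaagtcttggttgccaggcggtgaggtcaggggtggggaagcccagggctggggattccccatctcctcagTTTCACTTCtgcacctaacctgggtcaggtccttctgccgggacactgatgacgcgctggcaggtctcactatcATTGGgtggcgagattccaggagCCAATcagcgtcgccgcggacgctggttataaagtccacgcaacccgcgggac
Tap1, plus strand, chr17:34187306-34187555: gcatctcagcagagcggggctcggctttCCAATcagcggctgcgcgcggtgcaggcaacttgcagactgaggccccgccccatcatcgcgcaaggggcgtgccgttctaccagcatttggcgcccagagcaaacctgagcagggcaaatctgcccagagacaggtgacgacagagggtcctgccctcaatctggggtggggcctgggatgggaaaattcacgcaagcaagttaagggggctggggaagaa

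B2m held GAAACTGAA, followed by the NF-kB letters and by a Y box. H2-K1 and H2-D1 held the same ISRE letters, TTTCACTTC, and a Y box on each strand. Tap1 and Psmb9 are divergent genes whose promoter windows of 300 bases shared 275 bases, so the Tap1 sequence stands for both, and its capitals mark the Y box. Over the whole window of 300 bases, CCAAT was found in 7 of the 9 member promoters and in 37.4% of 32851 mouse promoters. The 9 are not separate sequences, since the H2-K1 windows overlap, as do those of Tap1 and Psmb9. Some matches were therefore counted more than once. GAAANNGAA was found in 1 of 9 and in 8.56% of all, GAANNGAAA in 3 of 9 (both starts of H2-K1, and H2-D1) and 7.52%, and GGNNTTTCC in 1 of 9 and 5.82%. GGNNTTTCC is only 1 spelling of such a site. H2-K1 and H2-D1 both hold ggggattcccc, which it does not match, so missing capitals do not show that an NF-kB site is absent. These are matches of letters in the reference strain and were not tested for binding.

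The comparison asks whether RNA of this pathway differed after cmLumiOpto/PARPi. None of the 10 members passed an adjusted p of 0.05 in edgeR's quasi-likelihood test, as 0% of all genes did (0 of 15167, smallest adjusted p = 0.138), and DESeq2, which called 966 genes (6.72% of those with an adjusted p), called 0 of the 10. None passed an unadjusted p of 0.05 either, against 21.2% of all genes tested. In none were the groups free of overlap, meaning the treated pair wholly above or wholly below the saline pair, which was so in 55.2% of all genes. The fitted log2 fold change was above 0 in 8 of the 10 members, against 52% of all genes, and its median was 0.17 in the members and 0.02 over all genes. What the members shared was the library with the highest level. cmLumiOpto/PARPi replicate 1 had the highest level in 10 of 10, as it had in 32% of all genes, while the lowest library was cmLumiOpto/PARPi replicate 2 in 6 members and saline replicate 2 in 4 (H2-K1, Tap2, Psmb9 and Psmb10). The 2 treated mice differed from each other by more than the group means did in 10 of 10, against 43% of all genes.

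**Figure D1:**
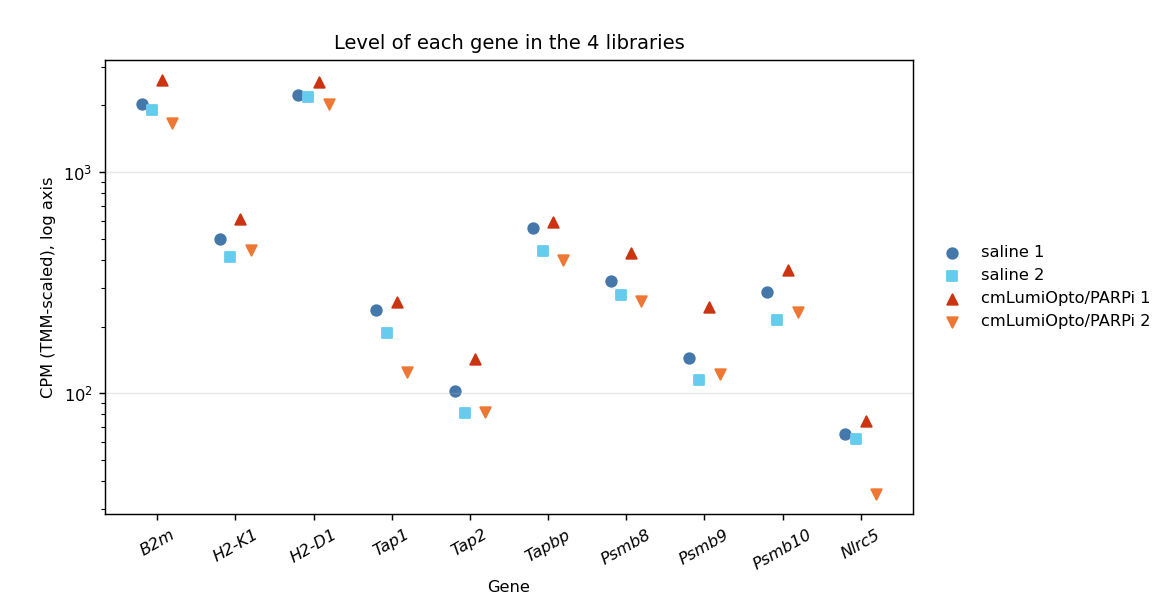
Level of each of the 10 genes in CPM (log axis) in each of the 4 libraries, with 1 point per library. cmLumiOpto/PARPi replicate 1 is the highest point for every gene, from 74.6 CPM for Nlrc5 to 2595 CPM for B2m, and cmLumiOpto/PARPi replicate 2 lies below both saline points for 6 genes and between them for 4.

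Among the structural chains, B2m encodes beta2-microglobulin, the invariant light chain without which class I heavy chains do not reach the cell surface (ENSMUSG00000060802, chromosome 2 from 121978167 to 121983564 in the table, whose build the submitters' notes give as mm39). Its level was 2023 and 1901 CPM in saline and 2595 and 1665 CPM after cmLumiOpto/PARPi. The treated libraries lay on both sides of the saline pair. The log2 fold change was 0.12 (standard error 0.25, 95% interval -0.50 to 0.74, adjusted p = 0.812), and the spread within the treated group, 1.56-fold, exceeded the 1.09-fold difference between groups.

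H2-K1 and H2-D1 encode classical heavy chains, the part of the molecule that holds the peptide. H2-K1 (chromosome 17 from 34214991 to 34219321) had 496 and 410.5 CPM in saline and 609.8 and 442 CPM in the treated libraries, a log2 fold change of 0.22 (standard error 0.21, 95% interval -0.30 to 0.73, adjusted p = 0.585). H2-D1 (chromosome 17 from 35481706 to 35486475) had 2231 and 2174 CPM in saline and 2554 and 2024 CPM after treatment, a log2 fold change of 0.06 (standard error 0.19, 95% interval -0.42 to 0.53, adjusted p = 0.892). For both, the saline libraries lay inside the range of the treated pair or, for saline replicate 2 of H2-K1, just below it. Of the members, H2-D1 had the smallest difference between the treated libraries, 1.26-fold. BALB/c mice and 4T1 cells carry the d haplotype of these genes while the reference genome is from C57BL/6, which carries b, and in the reference 8.79% of the 50-base windows of the H2-K1 transcript and 14.3% of those of H2-D1 also occurred in transcripts of other genes, mostly other class I genes. Levels of these heavy chain genes, and of their relatives below, are therefore uncertain, and the effect was not tested.

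The loading genes include Tap1 and Tap2, which form the transporter together, and Tapbp, which encodes tapasin. Tap1 (chromosome 17 from 34406527 to 34416199) had 238 and 187 CPM in saline and 258 and 125 CPM after cmLumiOpto/PARPi, so that replicate 1 of the treated group was the highest library and replicate 2 the lowest. Its log2 fold change was -0.15 (standard error 0.35, 95% interval -1.003 to 0.70, adjusted p = 0.828), and the treated libraries differed 2.07-fold. Tap2 (chromosome 17 from 34422501 to 34435295) had 102 and 80.9 CPM in saline and 142 and 82.5 CPM after treatment, a log2 fold change of 0.30 (95% interval -0.39 to 0.98, adjusted p = 0.568). Both parts of TAP had their highest level in the same treated mouse. For Tapbp (chromosome 17 from 34134873 to 34148266) the levels were 556 and 439.5 CPM in saline and 595 and 402 CPM after treatment, with a mean of 498 CPM in each group (log2 fold change 0.00, 95% interval -0.59 to 0.59, adjusted p = 0.999). Tapbp overlaps Zbtb22 on the same strand over 3422 bases of their spans, and Tap1 overlaps Psmb9 on the opposite strand over 212 bases. Strand handling in the counting is not given in the sources used here, so part of the reads may be shared between such genes.

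The immunoproteasome genes encode the beta5i, beta1i and beta2i subunits, in the order Psmb8, Psmb9 and Psmb10. Psmb8 (chromosome 17 from 34416695 to 34420428) had 319.8 and 278 CPM in saline and 431 and 261 CPM in the treated libraries, a log2 fold change of 0.21 (standard error 0.26, 95% interval -0.42 to 0.85, adjusted p = 0.667). Psmb9 (chromosome 17 from 34400961 to 34406738) had 144 and 115 CPM in saline and 245 and 122 CPM after treatment, with a log2 fold change of 0.50 that was the largest of the members (standard error 0.33, 95% interval -0.32 to 1.32, adjusted p = 0.422). That difference came from 1 treated library, since the other lay between the saline libraries. Psmb10, the immunoproteasome gene that lies outside the MHC (chromosome 8 from 106662367 to 106665076), had 287 and 213 CPM in saline and 361 and 233 CPM after treatment, a log2 fold change of 0.25 (95% interval -0.39 to 0.89, adjusted p = 0.612). As for Psmb9, treated replicate 1 was its highest library and saline replicate 2 its lowest.

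Nlrc5 encodes the class I transactivator, which works at the promoters of class I, B2m, Tap1 and Psmb9 genes (chromosome 8 from 95160984 to 95253900). Its level was 65.5 and 61.9 CPM in saline and 74.6 and 35.1 CPM after cmLumiOpto/PARPi. The saline libraries were close together, at a ratio of 1.06, while the treated libraries differed 2.13-fold, the widest gap of the 10 genes. The log2 fold change of -0.22 was not distinguishable from 0 (standard error 0.34, 95% interval -1.06 to 0.63, adjusted p = 0.746).

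**Figure D2:**
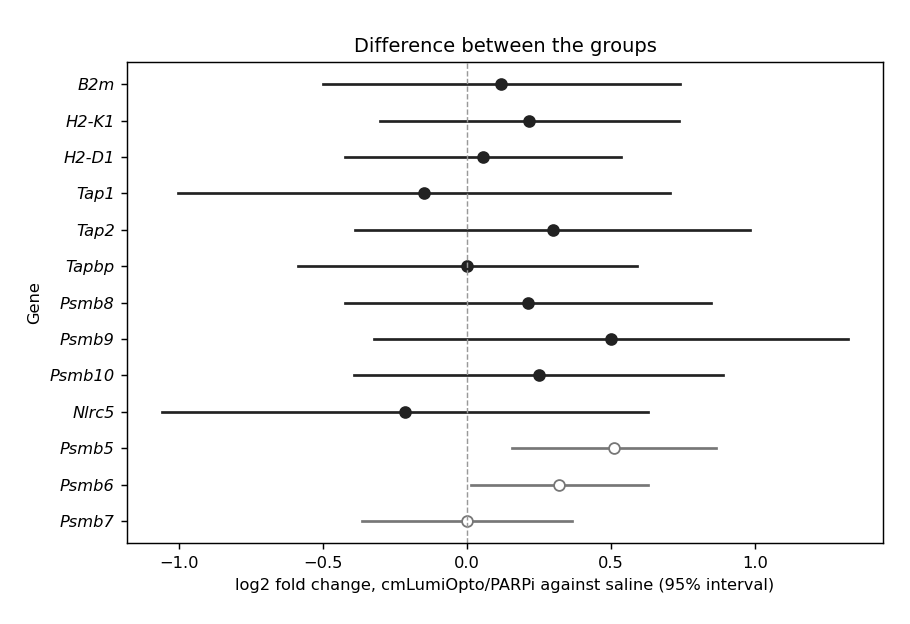
Fitted log2 fold change of cmLumiOpto/PARPi against saline (horizontal axis) with its 95% interval for the 10 genes (filled points) and the constitutive proteasome subunits (open points). Every interval of the 10 genes includes 0, from -0.22 for Nlrc5 to 0.50 for Psmb9, and those of Psmb5 and Psmb6 lie above 0. Psmb5 and Psmb6 stand in the shortest of 5 groups by gene length, whose median log2 fold change was 0.31.

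The intervals show what the design could not separate. The upper bound for Psmb9 was 1.32 and the lower bound for Nlrc5 was -1.06, so a doubling of the former or a halving of the latter lay inside them, while for H2-D1 the interval ended at -0.42 and 0.53. Across all genes tested the fold change fell with gene length, from a median log2 fold change of 0.31 in the shortest of 5 groups by length to -0.27 in the longest. B2m and Psmb10 stand in the shortest group, Nlrc5 in the longest, and Tap1 in the one next to it (median -0.09), and the members in the 2 longest groups were those with fold changes below 0. With the trends on gene length and mean expression removed together by loess, B2m came to -0.21, Tap1 to 0.10 and Nlrc5 to 0.042, each opposite in sign to its uncorrected value, and the parts of length and of mean expression were not separated.

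Per kilobase of gene length as the table gives it, the saline means ran from 2281 CPM per kilobase for B2m and 854 for H2-D1 to 7.501 for Nlrc5. Between them stood H2-K1 at 154, Psmb10 at 147 and Tapbp at 137 CPM per kilobase, whose saline libraries overlapped from one to the next. Psmb8 followed at 88.4, then Tap1 at 38.8 and Psmb9 at 35.4, which overlapped, and then Tap2 at 24.2 CPM per kilobase. After cmLumiOpto/PARPi the order was the same but for Psmb9, at 50.04, which stood above Tap1, at 35.0 CPM per kilobase, and these overlapped too. The light chain RNA was thus the most abundant of the members and that of Nlrc5 the least in both groups. Lengths in the table count every exon of a gene, which lowers the value of a gene with many isoforms.

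The constitutive subunits Psmb5, Psmb6 and Psmb7, which the immunoproteasome subunits replace, were not highest in that library. Psmb5 had 50.8 CPM in both saline libraries and 66.9 and 77.7 CPM after cmLumiOpto/PARPi (log2 fold change 0.51, adjusted p = 0.158). Psmb6 had 125 and 123 CPM in saline and 151 and 158 CPM after treatment, a log2 fold change of 0.32 (adjusted p = 0.226). Psmb7 had overlapping groups, at 109.9 and 129.6 CPM against 113 and 126 CPM. In Psmb5 and Psmb6 the treated pair lay wholly above the saline pair, as it did in 27.4% of all genes. Replicate 2, not 1, was the higher of the treated pair. These genes, at 899 and 1872 bases, stand in the shortest of the 5 length groups, whose median log2 fold change was 0.31. Psmb5 shared 57.1% of its 50-base windows with other transcripts, mainly Gm3375, and Psmb7 shared 28.1% with Nek6, which it overlaps on the opposite strand and which had 1292 to 1418 counts, so the levels of both and the ratios that use them are uncertain.

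A ratio of each immunoproteasome subunit to the constitutive subunit it replaces, taken within a library, needs no scaling between libraries. It does not remove the trend of fold change with gene length. Psmb5, Psmb6 and Psmb10 stand in the shortest length group, and Psmb8, Psmb9 and Psmb7, their partners in the ratios, in longer ones. The part of length in the ratios was not tested. The log2 ratio of Psmb8 to Psmb5 in counts per kilobase was 0.74 and 0.54 in saline and 0.78 and -0.16 after cmLumiOpto/PARPi. That of Psmb9 to Psmb6 was -0.76 and -1.07 in saline and -0.27 and -1.35 after treatment, and that of Psmb10 to Psmb7 was 2.39 and 1.72 in saline and 2.68 and 1.89 after treatment. In each pair of genes the ratio was highest in cmLumiOpto/PARPi replicate 1, and for the first 2 pairs it was lowest in cmLumiOpto/PARPi replicate 2. The differences of the means, treated minus saline, were -0.33, 0.10 and 0.23 on the log2 scale (exact permutation test, two-sided p = 1, 1 and 0.667). With 1 library left out they ran from -0.80 to 0.14, from -0.43 to 0.64 and from -0.17 to 0.62, and each changed sign: the first without cmLumiOpto/PARPi replicate 2 (0.14), and the others without cmLumiOpto/PARPi replicate 1 (-0.43 and -0.17) and without saline replicate 2 (-0.055 and -0.11). The level of a ratio depends on the gene lengths used: with the lengths of principal transcripts, a choice made after the first values were seen, the saline means were 1.69 for Psmb8 to Psmb5, -0.71 for Psmb9 to Psmb6 and 0.87 for Psmb10 to Psmb7, while the difference between groups is the same by construction.

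**Figure D3:**
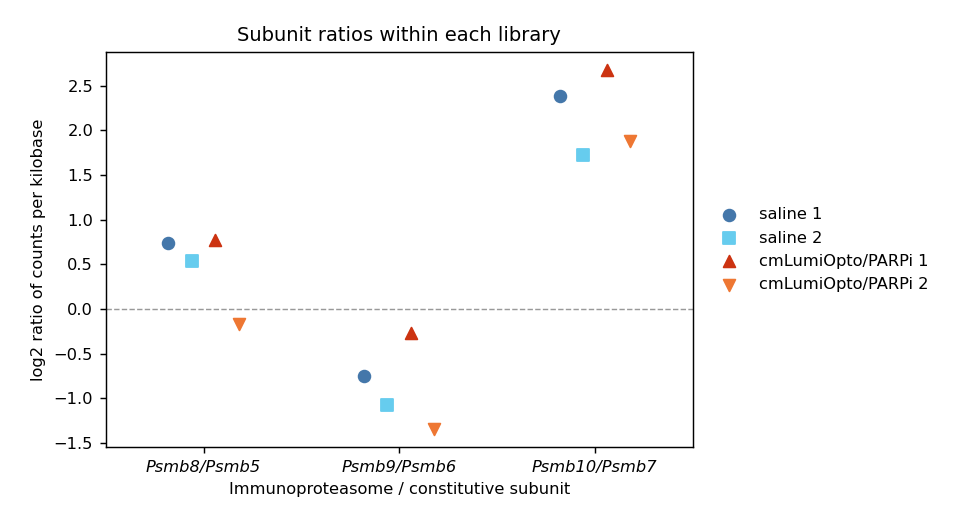
log2 ratio of counts per kilobase of each immunoproteasome subunit to its constitutive counterpart (vertical axis), with 1 point per library. The cmLumiOpto/PARPi points span the saline points for Psmb8/Psmb5 (0.78 to -0.16) and Psmb9/Psmb6 (-0.27 to -1.35), and for Psmb10/Psmb7 they reach from 1.89 to 2.68.

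Genes around the members in the pathway were read from lists. Of 18 genes of peptide trimming and loading, 0 passed an adjusted p of 0.05, while 3 were higher and 3 lower at an unadjusted p under 0.05. Of all genes tested, 21.2% passed the unadjusted cut in either direction, a share that applies to each list below. The higher ones were the protein translocation channel subunits Sec61b (log2 fold change 0.73, adjusted p = 0.138) and Sec61g (0.61, adjusted p = 0.138) and the export receptor gene Bcap31 (0.42, adjusted p = 0.184). The lower ones were the peptidase gene Tpp2 (log2 fold change -0.58, adjusted p = 0.138), the peptidase gene Lnpep (-0.40, adjusted p = 0.188) and the channel subunit Sec61a1 (-0.36, adjusted p = 0.222). Genes of one channel thus stood on both sides. The 3 higher genes, at 1219 to 2464 bases, stand in the 2 shortest of the 5 length groups, with median log2 fold changes of 0.31 and 0.15. The 3 lower ones, at 6732 to 14144 bases, stand in the 2 longest, with medians of -0.09 and -0.27. The part of gene length in this split was not tested. Erap1, which trims peptides in the endoplasmic reticulum, had overlapping groups at 152 and 136 CPM in saline and 141 and 91.3 CPM after treatment. The chaperone genes Calr and Pdia3 of the loading complex had overlapping groups as well, with log2 fold changes of 0.11 and 0.21.

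Of 10 proteasome activator and assembly genes, 5 were higher at an unadjusted p under 0.05 and 0 lower, against 21.2% of all genes in either direction. The list median was 0.37 against 0.02 over all genes, and 0 passed after adjustment. The assembly chaperone gene Psmg4 went from 20.8 and 21.6 CPM in saline to 34.3 and 30.3 CPM, a log2 fold change of 0.61 (adjusted p = 0.157). Psmg1, another assembly chaperone gene, was higher by 0.51 on the log2 scale (adjusted p = 0.202). Psme2, which encodes a subunit of the interferon-inducible activator PA28, had 128 and 121 CPM in saline and 211 and 148 CPM after treatment, a log2 fold change of 0.53 (adjusted p = 0.214). For the 3 genes, which were named for their smallest p, the treated pair lay wholly above the saline pair, as it did in 27.4% of all genes. The median gene length of this list, 2551 bases, lies in the second of the 5 length groups, whose median log2 fold change was 0.15. Psmg4, Psmg1 and Psme2, at 555, 1344 and 1764 bases, stand in the shortest group, whose median was 0.31. Psme1, the partner of Psme2, had overlapping groups with 300.1 and 237 CPM in saline and 369 and 289 CPM after treatment.

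Interferon genes were often highest in the same library as the members. Ifng, the gene of interferon-gamma, was too low to test, with 5 and 9 counts in saline and 37 and 3 counts after cmLumiOpto/PARPi. Irf1, which binds the ISRE, had 155 and 139 CPM in saline and 216 and 129 CPM after treatment (log2 fold change 0.23, adjusted p = 0.629). In both cmLumiOpto/PARPi replicate 1 was the highest library and replicate 2 the lowest. Of 21 interferon-gamma response genes, 20 had their highest level in cmLumiOpto/PARPi replicate 1, 0 passed an unadjusted p of 0.05, and the median log2 fold change was 0.09. The chemokine gene Cxcl9 had 108 and 49.5 CPM in saline and 221 and 41.5 CPM after treatment, and the GTPase gene Iigp1 had 180.4 and 159.8 CPM in saline and 269 and 70.8 CPM after treatment. Irf1 and these 2 genes were picked as examples after their values were seen.

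Relative to the mean of the 4 libraries, the interferon-gamma response genes averaged 0.19 and -0.31 in saline and 0.95 and -0.82 after cmLumiOpto/PARPi on the log2 CPM scale. The 10 members averaged 0.08 and -0.17 in saline and 0.41 and -0.32 after treatment. Both averages placed the libraries in one order, with the treated mice at the ends. Of 15 tested interferon signalling genes, 10 were highest in cmLumiOpto/PARPi replicate 1, and only Jak1, a receptor kinase gene, passed an unadjusted p of 0.05, at 208 and 219 CPM in saline and 158 and 156 CPM after treatment (log2 fold change -0.44, adjusted p = 0.164). Of 14 genes for transcription factors of class I promoters, which include Irf1, 6 were highest in that library and 0 passed an unadjusted p of 0.05. The RFX subunit genes Rfx5 and Rfxap, partners of Nlrc5 at the promoter, were highest in saline replicate 1, with log2 fold changes of -0.33 and -0.16, while the third subunit gene, Rfxank, had 10.1 and 6.34 CPM in saline and 12.2 and 11.9 CPM after treatment, without overlap (log2 fold change 0.55, adjusted p = 0.344).

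**Figure D4:**
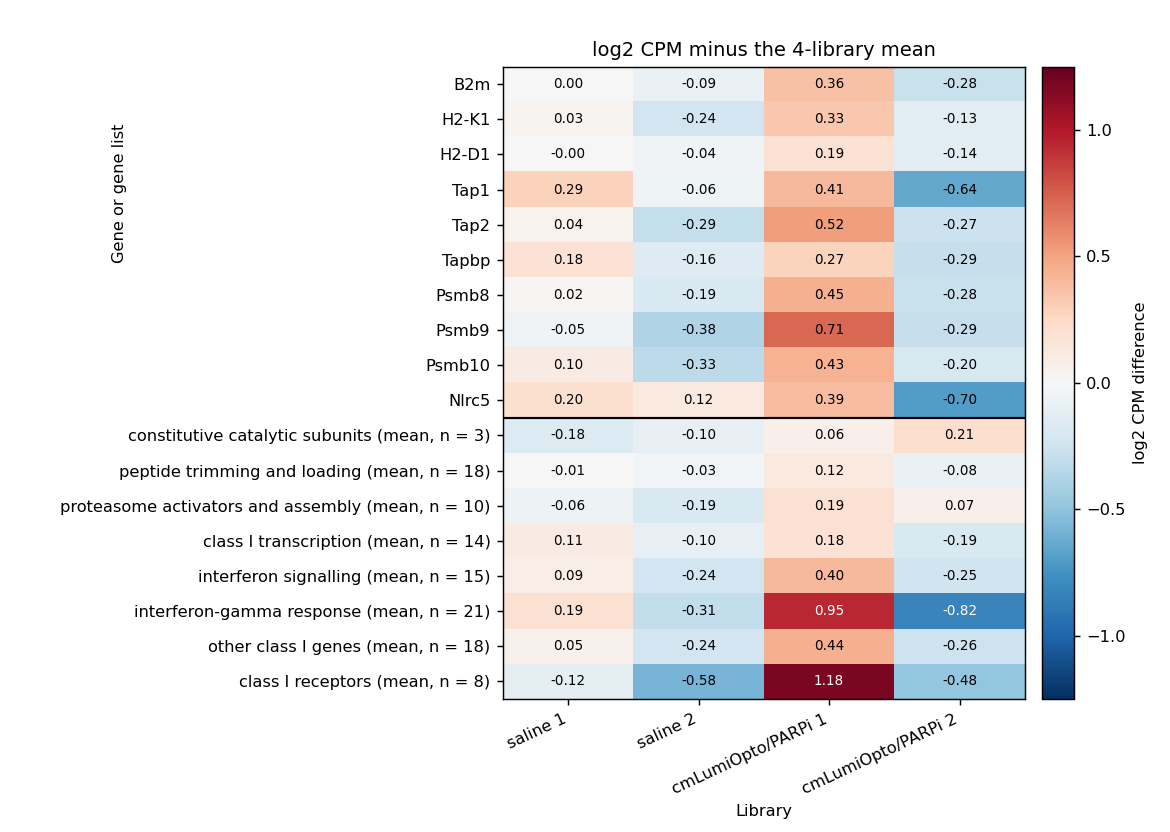
log2 CPM minus the mean of the 4 libraries for each of the 10 genes (above the line) and averaged over related gene lists (below it), by library. The 10 genes are above 0 in cmLumiOpto/PARPi replicate 1 and below 0 in replicate 2, the interferon-gamma response genes reach 0.95 and -0.82 there, and the constitutive subunits are highest in replicate 2, at 0.21.

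The other class I genes listed are mostly nonclassical or class I-like, and H2-L, which was listed, is absent from the genes counted. Of 27 listed, 23 were in the table and 18 were tested, and 14 of those were highest in cmLumiOpto/PARPi replicate 1. H2-T23, which encodes Qa-1, the ligand of the NKG2A receptor, had 248 and 169 CPM in saline and 433 and 205 CPM after treatment (log2 fold change 0.61, adjusted p = 0.390). At an unadjusted p under 0.05, Cd1d2, a lipid-presenting gene, was higher (log2 fold change 1.31, adjusted p = 0.235, at 0.681 to 2.48 CPM) and Mr1, which presents vitamin B metabolites, was lower (log2 fold change -0.47, adjusted p = 0.204). The median log2 fold change of the 18 genes was 0.25, and 0 passed after adjustment.

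Genes listed as receptors of class I molecules, or as relatives of such receptors, were low. Of 13 listed, 12 were in the table and 8 were tested, all 8 with a log2 fold change above 0 (median 1.13) and all 8 highest in cmLumiOpto/PARPi replicate 1. Cd8a, the coreceptor gene of cytotoxic T cells, had 14.7 and 8.38 CPM in saline and 26.4 and 6.38 CPM after treatment. Klrd1, whose product CD94 pairs with NKG2A, had 1.57 and 1.02 CPM in saline and 5.64 and 0.481 CPM after treatment. In both, the treated mice again held the highest and the lowest value. Lilrb4a and Pirb, inhibitory receptor genes of myeloid cells, were higher in both treated libraries (log2 fold changes 1.10 and 0.42, adjusted p = 0.199 and 0.224), and both passed an unadjusted p of 0.05. The Ly49 genes Klra1, Klra4 and Klra8 had 0 counts in every library and Klra7 had 1 count in 1 library, which, with a reference of another strain, says only that no more reads were assigned to these genes.

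Markers of T cells, NK cells, dendritic cells and endothelium were highest by sum in the same library as the members. All 13 T cell markers were detected and all 13 were highest in cmLumiOpto/PARPi replicate 1, with a summed level of 73.5 and 29.3 CPM in saline and 151 and 45.8 CPM after treatment. For NK cells the sum of 9 markers was 31.0 and 24.9 CPM in saline and 75.9 and 18.3 CPM after treatment, Klra8 being at 0 throughout and Ncr1, a defining marker, between 0.0681 and 3.22 CPM. The 7 dendritic cell markers summed to 65.3 and 28.8 CPM in saline and 118 and 60.3 CPM after treatment. The 6 endothelial markers summed to 476 and 372 CPM in saline and 689.6 and 369 CPM after treatment, each of them highest in cmLumiOpto/PARPi replicate 1. Across the other libraries, NK cell and endothelial sums kept the order of the members' averages. For NK cells that order rested on Prf1, at 11.9 and 12.3 CPM in saline and 12.8 and 2.53 CPM after treatment. Klrk1 was also lowest in cmLumiOpto/PARPi replicate 2. Ncr1, Klrb1c, Nkg7 and Gzma were lowest in saline replicate 2, and Gzmb and Eomes in saline replicate 1. The endothelial sums of saline replicate 2 and cmLumiOpto/PARPi replicate 2 were nearly equal. T cell and dendritic cell sums did not keep that order, being lowest in saline replicate 2. Macrophage markers varied less, with sums of 1923 and 1674 CPM in saline and 1936 and 1498 CPM after treatment, and the 7 neutrophil markers did not follow the members, at 1160.3 and 539.96 CPM in saline and 761 and 1463 CPM after treatment.

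Lung epithelium also differed between the libraries. The 7 alveolar type 2 markers were highest in cmLumiOpto/PARPi replicate 1 by sum, at 8056 CPM, but replicate 2 of that group, at 2873 CPM, stood above both saline libraries, which the members did not do. The 4 airway markers summed to 1153 and 81.1 CPM in saline and 5688 and 2983 CPM after treatment. The 7 epithelial tumour markers summed to 3011 and 3390.2 CPM in saline and 2689.5 and 3849 CPM after treatment, lowest where the members were highest. That sum was carried by Krt8 and Krt18, whereas Epcam and Cdh1 were highest in cmLumiOpto/PARPi replicate 1 (181 and 281 CPM) and lowest in saline replicate 2 (149 and 173 CPM). Of the remaining marker lists, alveolar type 1 (106 to 716 CPM), leukocyte (409.6 to 689.6 CPM) and B cell markers (8.25 to 61.7 CPM) were lowest by sum in saline replicate 2 and highest in cmLumiOpto/PARPi replicate 1. Alveolar macrophage markers (154 to 469.5 CPM) were highest by sum in saline replicate 2, where Chil3 alone had 423 CPM. Of these 6 markers, 4 were highest in cmLumiOpto/PARPi replicate 1. Proliferation markers (648 to 969.5 CPM) were lowest by sum in cmLumiOpto/PARPi replicate 1. The part of the cell makeup in the levels of the members was not tested.

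Without cmLumiOpto/PARPi replicate 2, all 10 members had their treated library above both saline libraries (42.2% of all genes tested), and 4 (B2m, Tap2, Psmb8 and Psmb9) passed an unadjusted p of 0.05 (21.6%). Without cmLumiOpto/PARPi replicate 1, 6 had their treated library below both saline libraries (37.3% of all genes tested), and 2 (Tap1 and Nlrc5) passed an unadjusted p of 0.05 (11.8%). No member passed an adjusted p of 0.05 in either case. For those 6 members the side on which the treated library lay turned on which treated mouse was left in.

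The genes outside the list whose levels lay nearest to the mean pattern of the members, by Euclidean distance of their log2 CPM deviations over the 4 libraries, were Kcnh7 (distance 0.00768), Peg13 (0.0149), Ss18l1 (0.0399), Casz1 (0.0445) and Wwc1 (0.0446). With 4 libraries and 15167 genes, many genes lie near any pattern, and this is a description only.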

How the data were processed

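The members and gene lists were chosen with earlier results of these data known. The deposited table holds whole-number read counts per gene, made by the authors from 4 libraries and not normalized. The study's methods name HISAT2 and GRCm38, while the submitters' processing notes list HISAT2, HISAT and TopHat2 and the build mm39. The counting tool and strand setting are not given in the sources used here. Gene positions are those of the table, and promoters are RefSeq sequences on GRCm38.p6.

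Differential expression was tested on all genes with edgeR 4.0.16 in R 4.3.3 (TMM factors, no covariate, filterByExpr at its minimum count of 10, glmQLFit then glmQLFTest at version defaults), with Benjamini-Hochberg adjustment over 15167 genes and a threshold of 0.05. The standard error is the size of the log2 fold change divided by the square root of F. CPM used TMM factors, and log2 CPM a prior count of 2. Subunit ratios used a pseudocount of 0.5 counts and the exact permutation test. Chi-square per degree of freedom was 26.1 between the saline libraries and 44.9 between the treated ones, well above counting noise, so each was counted as 1 replicate. Named were the members, the constitutive subunits, up to 3 genes per list and direction with the smallest p under 0.05, and as examples a few further genes of the lists, chosen after their values were seen. Lists follow the steps of the pathway, and marker lists the cell types of lung, tumour and blood. Alternatives were DESeq2 1.42.0, RLE factors, no filter, glmQLFit without its legacy option, a loess correction for gene length and mean expression (span 0.5), the replicate block and leaving out each library. The scripts were tested on simulated data. Some items of the lists and of the motif search are not reported here.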

Additional observations from a re-analysis of the deposited data

How the results depend on the processing

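No member passed an adjusted p of 0.05 under any alternative run, and the smallest adjusted p of a member was 0.0905, for Psmb9 without the filter on low counts. The number of genes called over the whole table rose from 0 to 2000 without the filter, 966 with DESeq2 and 1822 with the replicate block, and was 0 to 31 when a library was left out. Same-numbered libraries come from different mice, their deviations correlated across genes (Spearman's rho = 0.298, genes not being independent replicates), and under the block 1 member (Psmb9) passed an unadjusted p of 0.05 (30.6% of all genes), as 1 did without the filter (17.6%). Leaving out a library gave 0 to 4 such members (10.7% to 21.6% of all genes), 0 to 10 members wholly above saline (36.7% to 42.2%) and 0 to 6 wholly below it (36.6% to 39.4%). The 4 alternatives that kept all libraries and the filter in edgeR left the sign of every member as it was except for the loess correction (B2m -0.21, Tap1 0.10, Nlrc5 0.042) and the block (Tapbp -0.017), and Tapbp was also -0.011 without the filter and -0.010 with DESeq2. With a library left out the log2 fold changes ranged from -0.24 to 0.38 for B2m, -0.036 to 0.41 for H2-K1, -0.12 to 0.19 for H2-D1, -0.77 to 0.26 for Tap1, -0.15 to 0.61 for Tap2, -0.31 to 0.23 for Tapbp, -0.20 to 0.51 for Psmb8, -0.092 to 0.89 for Psmb9, -0.10 to 0.51 for Psmb10 and -0.86 to 0.21 for Nlrc5. In these fits the lone library is assumed to vary like the others. The cause was not tested.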
